A study of Mus musculus with 8 samples.

Results

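Small nucleolar RNAs (snoRNAs) from the imprinted Dlk1-Dio3 domain of mouse chromosome 12 were measured by small RNA sequencing in immortalized skin fibroblasts, and 13 features of the deposited table make up the set described here. They were chosen by name as snoRNA features whose positions on chromosome 12 fall among the microRNAs of the domain. The table holds 2403 features, of which 511 are snoRNAs and 15 are snoRNAs of this window. The 13 listed features are those of the 15 with a value of 10 or more in 2 or more libraries out of 8, so the choice used measured levels. FR280892 lies inside FR014374 and FR325285 inside FR310934, and each of these pairs was counted once, as the longer feature, which leaves 11 genes. FR343111 reached that level only through the KO libraries, so it had to differ between the genotypes and is left out of the counts that follow. All 4 KO libraries carried more than all 4 WT libraries of 8 of the other 10 genes, by 2.23-fold to 2.69-fold in the mean, against 8.38% of all tested features (129 of 1540). This count includes the normoxia libraries, in which FR014374 had been singled out before, so it is a description without a test. In the hypoxia libraries alone, both KO lay above both WT in 8 of the 10 genes, against 19.2% of tested features (295 of 1540). These genes are neighbours measured in the same libraries, and FR060513 and FR229499 may share reads, so they are not independent. FR291367 and FR101519 overlapped between the genotypes. None of the genes passed the test of KO against WT in hypoxia adjusted over all features.

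The cells were immortalized fibroblasts from the skin of C57BL/6 wild-type mice (WT) or of mice with the genotype mir210lox/lox, whose samples are titled KO. The oxygen level was 21% (normoxia) or 1% (hypoxia) for 24 h, and each of the 4 groups holds 2 libraries, numbered 1 and 2. The label mir210lox/lox names a floxed allele and states neither a deletion nor the Cre that would make one. miR-210-3p held 4786, 8676, 36738 and 39011 in the WT libraries and 10 to 32 in the KO libraries. How many lines or mice stand behind each genotype is not stated in the labels, so genotype and cell line cannot be told apart. The labels do not name separate cultures for the libraries of a group, and p-values therefore reflect the spread between these samples alone, which may be technical.

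A box C/D snoRNA is a short nucleolar RNA with a C box (TGATGA in the DNA letters used here) near its 5′ end and a D box (CTGA) near its 3′ end. Proteins bound to these boxes, including the methyltransferase fibrillarin, let the RNA guide methylation of a ribose in ribosomal or small nuclear RNA. The box C/D snoRNAs of the Dlk1-Dio3 domain are orphans: no ribosomal RNA target is established for them. They are processed from long non-coding transcripts made from the maternally inherited chromosome, of which Rian (also called Meg8) is the annotated snoRNA host and Mirg a microRNA host further downstream. The paternal chromosome of the same domain expresses the protein-coding genes Dlk1, Rtl1 and Dio3.

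The sequences of the 9 genes with a mean of at least 50 over the libraries are shown with FR229499, a near copy of FR060513, because they show which entries are whole box C/D RNAs and which are related to each other. They are the table's own sequences, written 5′ to 3′ with the first TGATGA and the last CTGA in capitals, and T stands for U. The first 5 come from the Rian region and the last 5 from beyond the annotated end of Rian.
FR291367: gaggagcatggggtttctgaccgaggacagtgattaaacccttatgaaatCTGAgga
FR311680: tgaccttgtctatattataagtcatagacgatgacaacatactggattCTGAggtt
FR101519: atcatgacgacaaatttaattCTGAgatca
FR014374: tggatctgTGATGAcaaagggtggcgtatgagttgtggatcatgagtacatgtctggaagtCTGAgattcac
FR115095: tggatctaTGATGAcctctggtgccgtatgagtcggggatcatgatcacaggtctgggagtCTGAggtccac
FR332977: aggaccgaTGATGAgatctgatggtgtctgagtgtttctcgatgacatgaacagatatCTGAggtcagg
FR060513: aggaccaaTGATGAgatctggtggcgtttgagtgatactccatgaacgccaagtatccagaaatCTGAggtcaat
FR310934: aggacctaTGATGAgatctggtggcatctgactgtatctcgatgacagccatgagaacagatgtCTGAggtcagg
FR229499: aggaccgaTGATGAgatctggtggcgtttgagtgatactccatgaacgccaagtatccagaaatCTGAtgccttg
FR140834: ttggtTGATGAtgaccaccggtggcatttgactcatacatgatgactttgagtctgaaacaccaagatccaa
All 8 listed features of 69 to 75 bases hold TGATGA within their first 20 bases. Among all 511 snoRNA features 20.4% do so, and among the 46 other snoRNA features of 69 to 75 bases 58.7% do. CTGA stands within the last 15 bases of 12 of the 13 listed features, against 38.4% of all snoRNA features. At 69 to 75 bases the shares were 87.5% of the listed (7 of 8) and 93.5% of the other snoRNA features (43 of 46). FR140834 is the exception, with its last CTGA starting 19 bases from the 3′ end, and it is printed without capitals there. Only the RNA strand was searched, and the TGATGA and CTGA motifs can overlap in sequence by their shared letters, which was not counted separately. The entries FR291367, FR311680 and FR101519 are shorter (57, 56 and 30 bases) and hold no TGATGA.

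FR291367 is the inner part of a longer annotated RNA, AF357425, whose GENCODE vM21 transcript of 73 bases does hold the C box and is shown for that reason.
AF357425: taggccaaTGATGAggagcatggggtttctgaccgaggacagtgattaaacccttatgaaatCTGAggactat
The short listed entry thus begins 12 bases inside the annotated RNA, within the C box, of which it keeps the last bases only. A value for FR291367 counts reads of that inner part as the table defines it.

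Sequence comparison placed the listed genes in groups of relatives. FR060513 and FR229499 are identical at 69 of 75 aligned positions, and 5 of their 6 differences lie in the last 10 bases. Reads from the first 65 bases, where these RNAs differ at 1 position, may have been shared or split between them, so their separate values are uncertain. FR332977 and FR310934 share 82.7%, and these 4 genes lie beyond Rian. Within Rian, FR115095 shares 83.6% with FR343111 and 80.6% with FR014374.

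The table places the 11 genes over 50846 bases, at positions whose genome build the sources used here do not give. Exact matches to GENCODE vM21 transcripts gave GRCm38 positions, all on the plus strand, for 10 of the 11 genes. FR311680 had no match. FR291367 matches AF357425 (chr12:109636024-109636080), inside an exon of a Rian transcript. FR101519 lies at chr12:109650709-109650738, in exons of 4 Rian transcripts, and carries the RefSeq name AF357359. FR343111 is DQ267101 (chr12:109651424-109651496) and FR014374 is Gm26922 (chr12:109654627-109654698), named AF357355 in RefSeq, both inside Rian exons. FR115095 is DQ267102 (chr12:109656345-109656416), within Rian (chr12:109603940-109661716) but in none of its exons. FR311680 lies between FR291367 and FR101519 in the table's positions and is counted with these as the 6 genes within Rian.

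The other 5 genes follow after a gap of 23528 bases, between the annotated ends of Rian and Mirg (chr12:109729764-109749460). They are FR332977, which is AF357428 (chr12:109679945-109680013), FR060513, which is Gm23736 (chr12:109680800-109680874), FR310934, which is AF357341 (chr12:109681519-109681593), FR229499, which is Gm22981 (chr12:109682384-109682458), and FR140834, which is Gm25854 (chr12:109686798-109686869). No exon of Rian covers them in this annotation.

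Library totals of normalized read counts ran from 8618630 to 12167438, so a value of 0 allows a share of up to 2.47e-05% to 3.48e-05% (3 counts of the total). MicroRNAs made up 73.0% to 82.0% of a library and snoRNAs 6.93% to 9.99%. The share of the 11 genes was lowest in library 1 of normoxic WT cells, at 0.0117% (95% Wilson interval 0.0111% to 0.0124%), and highest in library 1 of normoxic KO cells, at 0.0389% (0.0376% to 0.0402%). Such intervals and limits take a normalized value for a number of reads and cover only counting error. MicroRNAs typical of fibroblasts (16 features) held 39.1% to 48.9% of each library. The summed level of 7 epithelial microRNAs was 142 to 256 in WT and 100 to 290 in KO, of 6 haematopoietic ones 1579 to 3078 and 841 to 2245, of 2 endothelial ones 143 to 191 and 102 to 145, of 4 muscle ones 128 to 292 and 116 to 235, and of 9 neural or melanocyte ones 1493 to 2078 and 1257 to 1777. None of these markers was at 0 in all libraries, and none of the 5 lists of other cell types was higher in every KO library. Ribosomal RNA took 1.69% to 2.05% of the WT and 2.19% to 5.76% of the KO libraries, with every KO library above every WT library, and its part in the results was not tested. In bulk RNA, a change in the number of cells that make an RNA and a change in RNA per cell cannot be told apart.

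Within Rian, the most abundant feature was FR101519, the 30-base entry. It held 426 and 1072 in normoxic WT cells, 521 and 1318 in hypoxic WT cells, 968 and 1526 in normoxic KO cells, and 887 and 1471 in hypoxic KO cells, for libraries 1 and 2 in turn. In each of the 4 groups library 2 was the higher one, and both number 2 WT libraries exceeded both number 1 KO libraries, so the genotypes overlapped.

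FR291367, the AF357425 entry, held 221 and 347 in normoxic WT cells, 238 and 503 in hypoxic WT cells, 654 and 881 in normoxic KO cells, and 483 and 920 in hypoxic KO cells. The genotypes overlapped through a single pair: KO hypoxia number 1 (483) lay below WT hypoxia number 2 (503). In normoxia both KO libraries were above both WT libraries.

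FR014374, the Gm26922 gene, held 125 and 118 in normoxic WT cells, 157 and 196 in hypoxic WT cells, 461 and 305 in normoxic KO cells, and 296 and 440 in hypoxic KO cells. All KO libraries lay above all WT libraries, with the lowest KO value at 296 and the highest WT value at 196. FR311680, the unmatched 56-base entry, held 67 and 115 in normoxic WT cells, 55 and 141 in hypoxic WT cells, 228 and 197 in normoxic KO cells, and 240 and 177 in hypoxic KO cells. Its genotypes did not overlap either, although the WT libraries numbered 2 were above those numbered 1 at each oxygen level.

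FR115095, the DQ267102 gene, held 23 and 37 in normoxic WT cells, 25 and 47 in hypoxic WT cells, 81 and 90 in normoxic KO cells, and 82 and 102 in hypoxic KO cells. Every KO value was above every WT value. FR343111, the DQ267101 gene, was the least abundant of the set, with 7 to 8 in the WT and 17 to 32 in the KO libraries. The snoRNAs of the window just outside that level were FR160561 (Gm24564), with 1 to 3 in each genotype, and FR117607 (Gm25856), with 0 to 1 in WT and 1 to 4 in KO.

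Beyond Rian, FR310934 (AF357341) had the highest mean count, but per base it did not differ from FR332977 beyond their spread. FR310934 held 106 and 144 in normoxic WT cells, 93 and 139 in hypoxic WT cells, 295 and 334 in normoxic KO cells, and 368 and 267 in hypoxic KO cells. FR332977 (AF357428) held 81 and 151 in normoxic WT cells, 76 and 162 in hypoxic WT cells, 266 and 294 in normoxic KO cells, and 227 and 328 in hypoxic KO cells. For both genes each KO library was above each WT library, and the number 2 libraries of WT were above the number 1 libraries.

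FR140834 (Gm25854) held 55 and 93 in normoxic WT cells, 72 and 101 in hypoxic WT cells, 190 and 158 in normoxic KO cells, and 211 and 211 in hypoxic KO cells. FR060513 (Gm23736) held 23 and 40 in normoxic WT cells, 26 and 33 in hypoxic WT cells, 78 and 72 in normoxic KO cells, and 96 and 59 in hypoxic KO cells. The genotypes were apart in both genes. FR229499 (Gm22981), the near copy of FR060513, ran from 17 to 36 in WT and from 38 to 98 in KO, so its lowest KO value (KO hypoxia number 2) was close to its highest WT value (WT normoxia number 2).

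**Figure D1:**
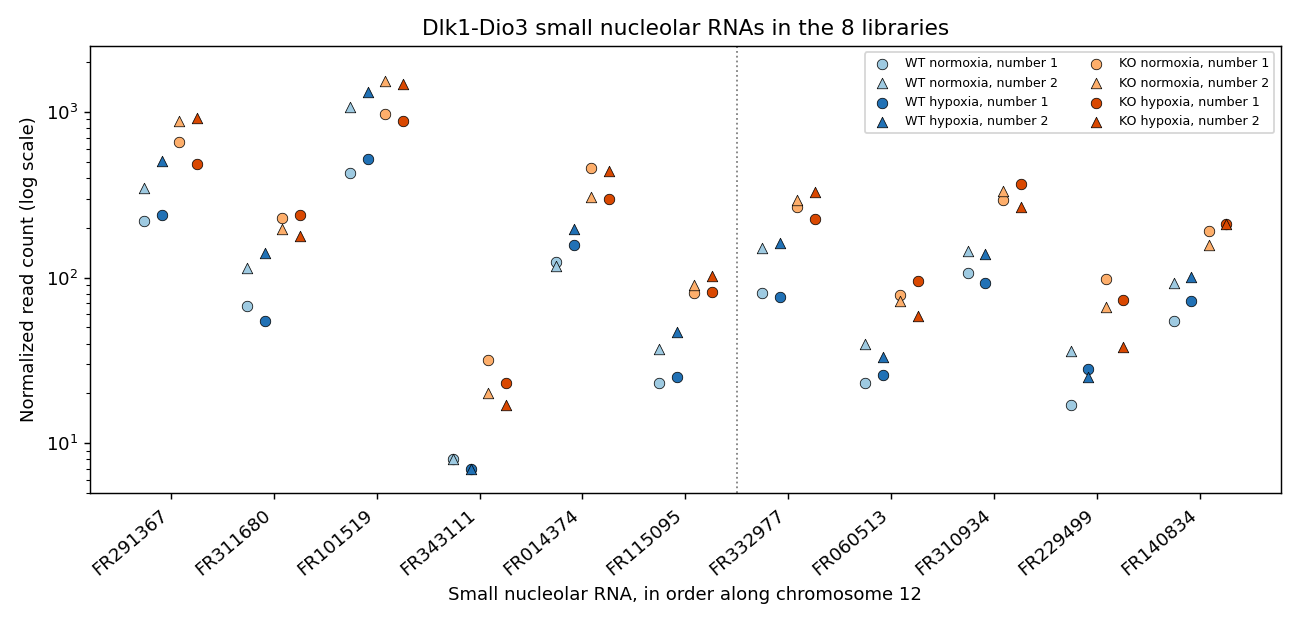
Normalized read count (log axis) of the 11 genes in each of the 8 libraries, in order along the chromosome. Circles are libraries numbered 1 and triangles those numbered 2, and the dotted line separates the 6 genes within Rian (left) from the 5 beyond it. KO points lie above WT points except in FR291367, where 483 in KO is under 503 in WT, and FR101519, where the genotypes overlap widely. FR343111 is shown too, although its choice required it to differ.

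Levels were compared between genes per base of the feature, although values need not rise with its length. FR325285, at 58 bases, gave 2.04 per base in WT, against 1.61 for FR310934, the 75-base feature that contains it. Short entries such as FR101519 are raised by the division, and the order of close genes depends on which entry stands for a gene. On the scale of normalized read count per base, WT libraries gave 27.8 ± 14.3 for FR101519 and 5.74 ± 2.28 for FR291367 (SD, n = 4 over both oxygen levels). Next came FR014374 at 2.07 ± 0.495, FR332977 at 1.70 ± 0.657, FR311680 at 1.69 ± 0.722, FR310934 at 1.61 ± 0.332 and FR140834 at 1.11 ± 0.289. The ranges of mean ± SD of neighbours in this order overlapped, but the genes share their libraries, and FR310934 was above FR140834 in every library. FR115095 at 0.458 ± 0.155, FR060513 at 0.407 ± 0.101 and FR229499 at 0.353 ± 0.105 had overlapping ranges too, and FR343111 was lowest at 0.103 ± 0.00791. In KO libraries FR101519 (40.4 ± 11.1), FR291367 (12.9 ± 3.59) and FR014374 (5.22 ± 1.21) kept the first places and FR343111 (0.315 ± 0.0888) the last.

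The 2 listed features inside longer ones show how the values divide along each RNA. FR325285, which leaves out 12 bases at the 5′ end and 5 at the 3′ end of FR310934, held 96.9% to 99.7% of the value of the full feature in each library. FR280892, which leaves out 14 and 4 bases of FR014374 and with them the C box, held 74.0% to 81.8%. The share was 77.7% in the mean of the WT and 78.2% in the mean of the KO libraries, so the part covered did not move with the genotype by more than its range over libraries.

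The comparison of KO with WT in hypoxia takes its differences from the 4 hypoxia libraries and its standard errors from the spread in all 8, the normoxia libraries included. Its values are differences of log2(value + 1) from limma with p-values adjusted over 1540 tested features by Benjamini-Hochberg. Without FR343111, all 10 genes were higher in KO, against 699 of all 1540 tested features. The differences of the 10 genes ran from 0.46 to 1.45, with a median of 1.25 (2.38-fold). None passed at an adjusted p under 0.05, which 0.13% of all tested features did (2 of 1540). At an unadjusted p under 0.05 and higher in KO stood 7 of the 10 genes, against 7.14% of all tested features (110 of 1540). Both KO hypoxia libraries lay above both WT hypoxia libraries in 8 of the 10 genes, against 19.2% of tested features (295 of 1540). The 10 genes are neighbours measured in the same libraries, and FR060513 and FR229499 may share reads, so they are not independent.

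Among the genes within Rian, FR115095 differed in hypoxia by 1.39 (SE 0.41, adjusted p = 0.493) and FR014374 by 1.04 (SE 0.33, adjusted p = 0.493). FR311680 differed by 1.22 (SE 0.46, adjusted p = 0.542). FR291367 differed by 0.94 (SE 0.45, adjusted p = 0.571). FR101519 differed by 0.46 (SE 0.54, adjusted p = 0.967), and its sign turned to −0.21 without WT hypoxia number 1, while it was 1.13 without WT hypoxia number 2. The SE of the last of these exceeded its difference.

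Among the genes beyond Rian, FR310934 differed in hypoxia by 1.45 (SE 0.33, adjusted p = 0.461), the lowest adjusted p of the 11 genes. FR140834 differed by 1.30 (SE 0.35, adjusted p = 0.493), FR060513 by 1.33 (SE 0.41, adjusted p = 0.493) and FR332977 by 1.29 (SE 0.43, adjusted p = 0.493). FR229499 differed by 0.97 (SE 0.48, adjusted p = 0.627).

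In normoxia the same contrast is given as a description without a test, since FR014374 had been singled out in it before. Without FR343111, all 10 genes were higher in KO, against 703 of all 1540 tested features. The differences of the 10 genes ran from 0.85 (FR101519) to 1.66 (FR229499), with a median of 1.33 (2.52-fold). FR014374 differed by 1.62 (SE 0.33), with a mean of 121.5 ± 4.95 in WT and 383 ± 110 in KO (SD, n = 2). FR291367 differed by 1.45 (SE 0.45), FR115095 by 1.52 (SE 0.41) and FR310934 by 1.34 (SE 0.33).

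**Figure D2:**
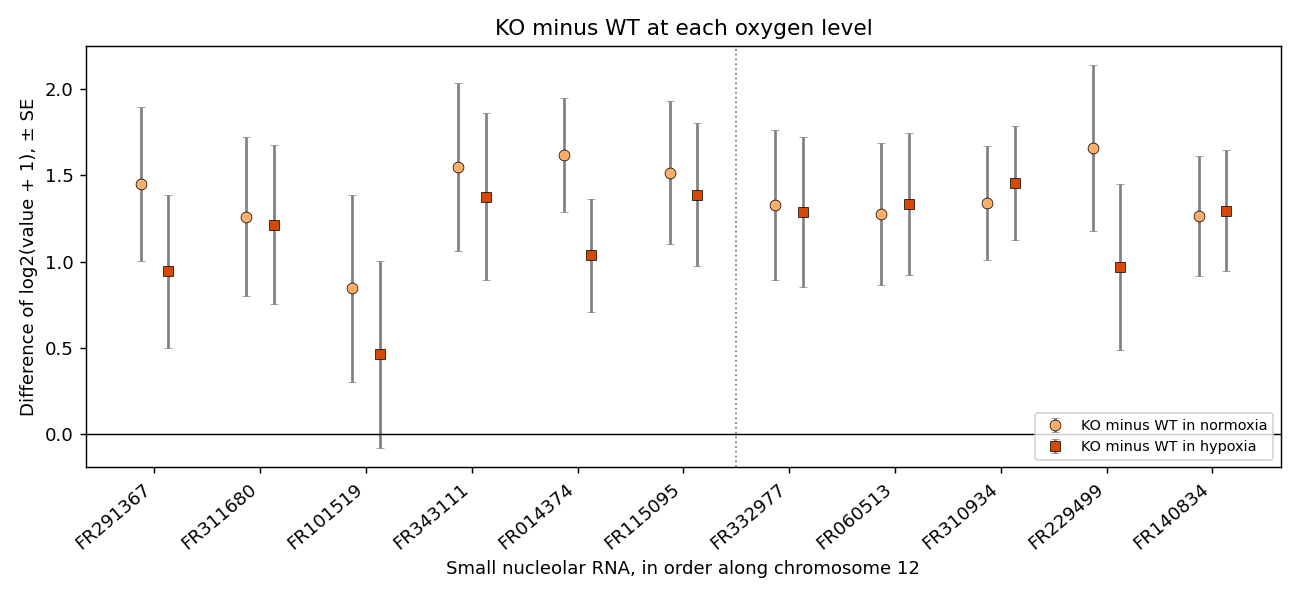
KO minus WT difference of log2(value + 1) with its limma standard error for each of the 11 genes, in normoxia (circles) and hypoxia (squares), 2 libraries a group. All points lie above 0, from 0.46 (FR101519 in hypoxia) to 1.66 (FR229499 in normoxia), and the error bar of FR101519 in hypoxia reaches below 0. FR343111 is shown too, although its choice required it to differ.

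Averaged over the oxygen levels, the differences of the 10 genes without FR343111 ran from 0.65 (FR101519) to 1.45 (FR115095), with a median of 1.31. This average includes the normoxia libraries, so it too is a description, given without a test.

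The libraries numbered 1 and 2 gave different sizes of the same difference. Within number 1 the median KO minus WT difference, without FR343111, was 1.74 in normoxia and 1.55 in hypoxia. Within number 2 it was 0.91 and 0.90. The 10 genes other than FR343111 were all higher in KO within each number at each oxygen level. For FR311680 in hypoxia the values were 2.11 and 0.33, and for FR101519 they were 0.77 and 0.16. FR014374 went the other way in hypoxia, with 0.91 and 1.16. The numbers are not stated to be batches.

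The rest of the snoRNA class is described beside these genes by its medians. The 363 other snoRNAs tested had a median KO minus WT difference of −0.12 in normoxia and −0.11 in hypoxia, with 131 and 104 of them higher in KO. Restricted to the 69 other snoRNAs of 60 to 110 bases with TGATGA in the first 20, the medians were −0.18 and −0.14. All KO libraries were above all WT libraries in 2 of the 363 other snoRNAs, against 8.38% of all tested features (129 of 1540). The medians over all 1540 tested features were −0.06 and −0.04, with 703 and 699 of them higher in KO.

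MicroRNAs of the same window, processed from long transcripts of the same maternal strand, were mostly higher in KO. Of 78 tested, 75 were higher in KO in normoxia and 77 in hypoxia, against 703 and 699 of all 1540 tested features. The medians of the 78 were 0.96 and 1.21. In hypoxia 56 were higher in KO at an unadjusted p under 0.05 by limma. Among all tested features, these included, 7.14% were (110 of 1540). Every KO library lay above every WT library in 47 of the 78, against 8.38% of all tested features (129 of 1540). The most abundant, miR-127-3p, a maternally expressed microRNA antisense to Rtl1, held 3666 and 6967 in normoxic WT cells, 2645 and 8899 in hypoxic WT cells, 9133 and 12530 in normoxic KO cells, and 9629 and 14275 in hypoxic KO cells. miR-379-5p, the first microRNA of the large cluster downstream of the snoRNAs, held 1742 to 3758 in WT and 4202 to 7174 in KO. miR-299-5p held 1381 to 2725 in WT and 1935 to 4272 in KO, which overlap, and miR-337-3p 928 to 1911 and 1716 to 2926, which overlap too. Differences of these 4 microRNAs in hypoxia were 1.27 (SE 0.54), 0.99 (SE 0.40), 1.01 (SE 0.37) and 1.08 (SE 0.37) on the log2 scale.

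**Figure D3:**
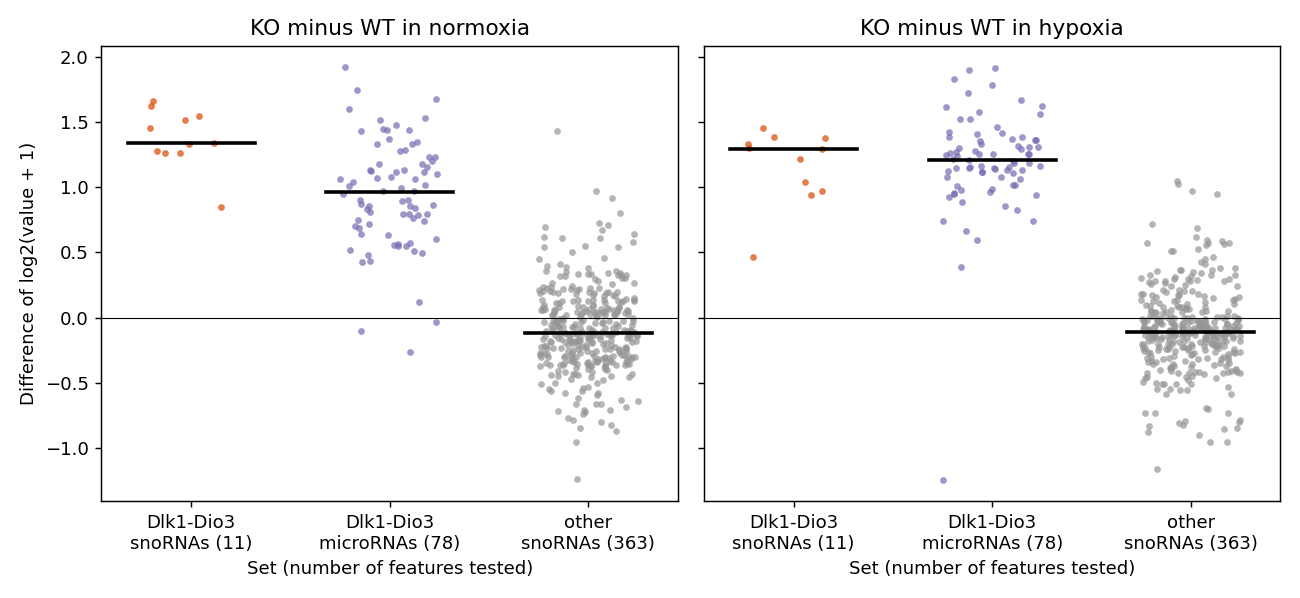
KO minus WT difference of log2(value + 1) in normoxia (left) and hypoxia (right), 1 point per tested feature, for the 11 snoRNA genes, 78 microRNAs of the same window and 363 other snoRNAs. Black lines are medians (1.34, 0.96 and −0.12 in normoxia, 1.29, 1.21 and −0.11 in hypoxia). The snoRNA genes shown include FR343111, and without it their medians were 1.33 and 1.25.

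Summed levels lay apart between the genotypes for the 5 genes beyond Rian and the microRNAs of the window. They overlapped for the 6 genes within Rian and for the other snoRNAs. The 5 genes beyond Rian summed to 282 and 464 in normoxic WT cells, 295 and 460 in hypoxic WT cells, 927 and 924 in normoxic KO cells, and 975 and 903 in hypoxic KO cells, 2.48-fold higher in KO in normoxia and 2.49-fold in hypoxia. The KO sums lie within 903 to 975, while the WT sums split by library number. The 6 genes within Rian summed to 870 to 2212 in WT and 2011 to 3127 in KO, which overlap, with a ratio of 1.83. FR101519 carries much of that sum. All 11 genes, within and beyond Rian, summed to 1152 to 2672 in WT and 2986 to 4030 in KO, a ratio of 1.96. Without FR101519 the other 10, FR343111 among them, summed to 726 to 1354 in WT and 2099 to 2559 in KO, a ratio of 2.40. The 92 microRNAs of the window summed to 15804 to 35625 in WT and 41860 to 59115 in KO (2.01-fold), and the 498 other snoRNAs to 844429 to 949656 and 711439 to 856692 (0.890).

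**Figure D4:**
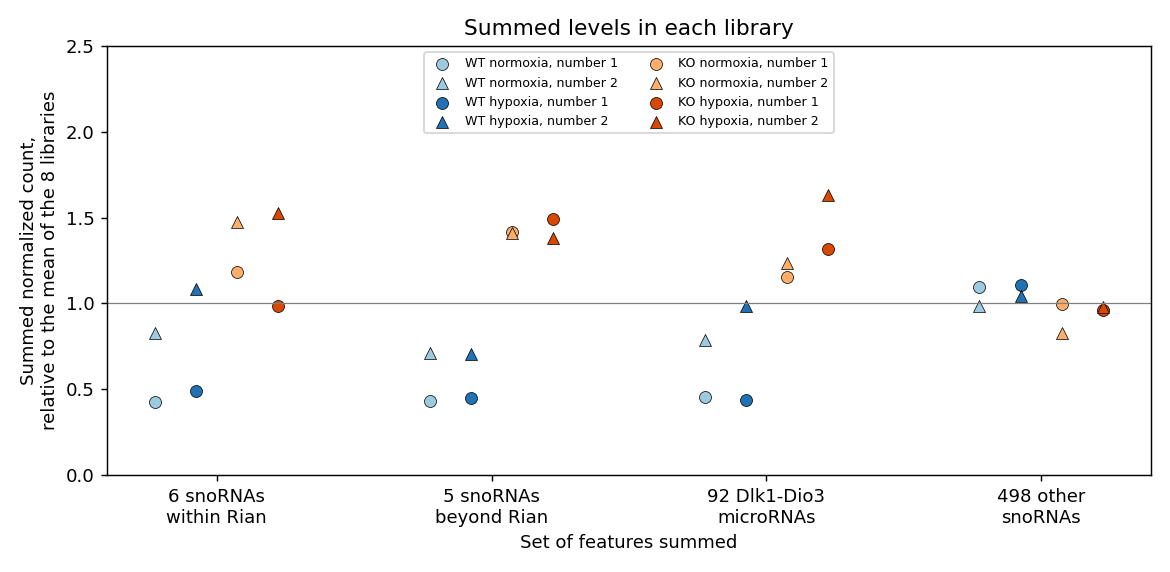
Summed normalized count of 4 sets of features in each library, relative to the mean of the 8 libraries for that set (linear axis from 0). The 5 genes beyond Rian lie at 0.431 to 0.710 in WT and at 1.38 to 1.49 in KO, while the 498 other snoRNAs stay between 0.830 and 1.11.

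The effect of oxygen on these snoRNAs was compared within each genotype, and the genes varied in sign. In WT the hypoxia minus normoxia difference had a median of 0.09 over the 11 genes, from −0.17 (FR343111) to 0.53 (FR014374, SE 0.33), with 8 higher and 3 lower. In KO the median was −0.04, from −0.60 (FR229499, SE 0.48) to 0.28 (FR140834), with 3 higher and 8 lower. None of the 11 had an unadjusted p under 0.05 by limma in either genotype. Of all tested features 0.0% passed the adjusted threshold in each genotype, with 20 in WT and 83 in KO at an unadjusted p under 0.05. The microRNAs of the window had medians of 0.13 in WT and 0.27 in KO, with 65 of 78 higher in KO hypoxia than in KO normoxia. Of all 1540 tested features 807 were higher in KO hypoxia than in KO normoxia.

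The interaction, the KO response to hypoxia minus the WT response, ran from −0.69 (FR229499) to 0.12 (FR310934) with a median of −0.13. The 6 genes within Rian had a median of −0.28, with FR014374 lowest at −0.58 (SE 0.47), and none passed. All 6 were negative with the 8 libraries, but 2 of 6 were (median 0.16) without WT hypoxia number 2 and 3 of 6 (median 0.02) without WT normoxia number 1. The interaction had 0.0% of tested features past the adjusted threshold and 37 at an unadjusted p under 0.05, none of them a listed gene.

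The 11 genes varied together across libraries to unequal degrees. The correlation of each gene with the mean of the other genes, on log2 values over 8 libraries, ran from 0.704 (FR101519) and 0.836 (FR229499) to 0.983 (FR115095). The points share their libraries and the genotype difference, so these are descriptions. The features outside the set most like its mean profile were 3 microRNAs of the same window: miR-433-5p (Pearson r = 0.973), miR-382-3p (0.968) and miR-300-3p (0.968, all over 8 libraries). miR-433-5p held 23 to 39 in WT and 54 to 72 in KO, miR-382-3p 99 to 206 and 273 to 362, and miR-300-3p 73 to 169 and 241 to 294, without overlap in any of them. Of the 50 features most like the profile 35 lie in the window, which held 78 microRNAs among the 1527 features compared. The profile includes FR343111 and the normoxia libraries, so this count is a description too.

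Outside the domain, the most similar snoRNAs were FR146033 and FR228491, overlapping entries on chromosome X (r = 0.751 and 0.720), and FR357827 on chromosome 9 (r = 0.679). FR146033 held 161 to 182 in WT and 200 to 307 in KO, a difference in hypoxia of 0.51 (SE 0.31), and it ranked 118th of 1527 features compared. The median correlation with the profile was 0.884 for the 78 microRNAs of the window and −0.084 for all features compared.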

How the data were processed

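Small RNA libraries from 8 samples in 4 groups were compared. The deposited table gives 1 score per feature and library, per the labels a normalized read count, as whole numbers. The sources used here do not give the alignment, the build, the normalization or how reads with several matches were counted. Totals were 8618630 to 12167438. RNA was isolated with miRNeasy and sequencing libraries were prepared with an NEB kit for SOLiD, per the labels' protocols. Because the values are normalized, count models were not used. For the 1540 features with a value of 10 or more in 2 or more libraries, log2(value + 1) was modelled in limma 3.58.1 (R 4.3.3) by 4 group means over the 8 libraries with a mean-variance trend, and p-values were adjusted by Benjamini-Hochberg (threshold 0.05). The fit was run on simulated data with independent libraries and a single common spread. Detection was judged there only for changes larger than those of these genes. That run therefore does not show whether changes of their size could be called. Sequences were matched exactly to GENCODE vM21 (GRCm38) transcripts and aligned with Biopython 1.88.

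All 13 listed features are named. Features that overlap by at least 0.5 of the shorter one count as the one with the higher mean, and genes with a mean of at least 50 get full statistics. The features most like the set are the top 3 of all features, among microRNAs and among snoRNAs by Pearson r. The members and lists were chosen with earlier results of these data known. Alternatives were a pseudocount of 8, no filter, TMM factors, the microRNA total, the total of other snoRNAs, the replicate number as a block, each library left out, and the inner features in place of the outer ones.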

Additional observations from a re-analysis of the deposited data

Results flagged for a closer look

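FR117607 (Gm25856), a snoRNA of the same window that is not among the 13 listed features because its values are too low, had a summed value of 1 over the 4 WT libraries and of 8 over the 4 KO libraries. It is given here because the KO sum of a feature outside the main comparison was above the WT sum, a ratio of 8.0 (95% exact interval 1.07 to 355, counting error only). KO hypoxia number 1 held 4 of these 8, and both KO normoxia libraries held 1, as did WT hypoxia number 1, so the ratio rests on very few counts and largely on 1 library and does not show a difference between the genotypes. FR160561 (Gm24564), the other such snoRNA, summed to 10 in WT and 8 in KO (ratio 0.8).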

How the results depend on the processing

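The median KO minus WT difference over the 11 genes, FR343111 included, kept its direction under every alternative run. When each library was left out it was 1.12 to 1.65 in normoxia, 0.95 to 1.5 in hypoxia and 1.09 to 1.47 averaged. Of 462 values for single genes in these comparisons 1 reversed (FR101519 in hypoxia, −0.21 to 1.13 over left-out libraries). Averaged over oxygen, whether genes passed the adjusted threshold depended on the processing and on the libraries kept. That contrast includes the normoxia libraries, and the 11 genes include FR343111, so such passes are no test and are not counted here. In KO against WT in hypoxia none of the 11 genes passed with the microRNA total, the replicate block, TMM factors or the total of other snoRNAs. The oxygen comparisons and the interaction were not stable: 70 of 462 values for single genes changed sign.

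The number of features past the threshold averaged over oxygen was 2, and it became 16 with TMM factors, 85 with the microRNA total, 5 with the total of other snoRNAs, and 2 to 29 when each library was left out (29 without WT hypoxia number 2, 4 without KO hypoxia number 2). In normoxia it was 1 to 2 over left-out libraries (2 without WT hypoxia number 2), and for hypoxia in WT it was 1 with a pseudocount of 8. The cause was not tested. With the replicate number as a block (replicate block), 91 features passed averaged over oxygen, and 8 features passed for hypoxia in WT. In hypoxia none of the 11 genes passed KO against WT with it either (limma, lowest adjusted p = 0.117). The labels do not say what the numbers share. Deviations by number correlated positively between every pair of groups, with r from 0.151 to 0.551, and the main fit leaves the number out.

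The median for hypoxia in WT was 0.056 with a pseudocount of 8, 0.082 with TMM factors, 0.032 with the microRNA total, 0.042 with the total of other snoRNAs and −0.34 to 0.55 over left-out libraries. In KO it was −0.18 with the microRNA total, −0.13 with the total of other snoRNAs and −0.13 to 0.23 over left-out libraries. The interaction median was −0.10, −0.15, −0.21 and −0.17 with the pseudocount of 8, TMM factors, the microRNA total and the total of other snoRNAs, and −0.58 to 0.28 over left-out libraries. Scaling to the microRNA total or to that of other snoRNAs moved the median of all features by 0.23 and 0.18 in the genotype comparison in normoxia and by 0.15 in hypoxia.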
